A study of Rattus norvegicus with 6 samples.

Results

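The NRF2 antioxidant response genes followed here were 10 genes chosen by name: the transcription factor NRF2 (gene Nfe2l2), its sensor Keap1, and the effector genes Nqo1, Hmox1, Gclc, Gclm, Txnrd1, Srxn1, Slc7a11 and Gpx4. Of these, 9 were found by symbol among the 32883 rows of the count table and all 9 passed the filter on low counts, which left 14352 genes. Srxn1 was not analysed here. The samples were the vestibular sensory epithelia of 6 adult male Long-Evans rats. The 3 rats of the IDPN-4wk group were given 3,3'-iminodipropionitrile (IDPN) at 20 mM in their drinking water over 4 weeks, and the 3 control rats were given water without it. IDPN is a nitrile that damages inner ear hair cells (HCs). The 2 utricles and 6 cristae of an animal were pooled, so that each library is 1 animal. The material is bulk tissue, which holds HCs, supporting cells and the glia, stroma, vessels and secretory cells that come away with them.

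NRF2 is a transcription factor that is made continuously and, in an unstressed cell, is bound by KEAP1, which hands it to a CUL3 ubiquitin ligase for degradation. Electrophiles and oxidants modify cysteines of KEAP1, NRF2 then accumulates, and with a small MAF partner it binds antioxidant response elements (AREs) near genes of quinone reduction, heme breakdown, glutathione synthesis and the thioredoxin system. BACH1 is a repressor that competes for the same elements, and in the inner ear this system has been studied as a defence of HCs against ototoxic drugs. NRF2 is regulated mostly as a protein, so that its mRNA is not a measure of its activity.

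The sequences around the start sites of the genes are shown because the genes below differed in direction and size of change while belonging to 1 textbook pathway. They are RefSeq promoters of the rat build GRCr8, from 250 bases before to 50 bases after the start, read on the strand of the gene, whereas the counts were made on Rnor6.0. Promoters matched 9 of the 10 genes by symbol, 12 promoters in all. Hmox1 was not among them. The ARE core was searched as TGACNNNGC on both strands, and it occurred in 12.1% of 33469 rat promoters of this length. Among the 10 genes it occurred in Nfe2l2, Gclm and 1 of the 2 promoters of Txnrd1, and capitals mark each match below. In Nfe2l2 (chr3:81028950-81029249, minus strand) it lay at bases 289 to 297, after the start site.

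Nfe2l2: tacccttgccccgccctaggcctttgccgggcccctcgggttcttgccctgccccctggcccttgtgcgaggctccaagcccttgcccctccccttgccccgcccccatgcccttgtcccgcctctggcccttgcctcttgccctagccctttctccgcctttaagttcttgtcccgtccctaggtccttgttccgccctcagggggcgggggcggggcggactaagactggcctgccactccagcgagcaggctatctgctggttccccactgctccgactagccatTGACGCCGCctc

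In Txnrd1 (chr7:22755855-22756154, minus strand) the match read on the opposite strand, at bases 173 to 181.

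Txnrd1: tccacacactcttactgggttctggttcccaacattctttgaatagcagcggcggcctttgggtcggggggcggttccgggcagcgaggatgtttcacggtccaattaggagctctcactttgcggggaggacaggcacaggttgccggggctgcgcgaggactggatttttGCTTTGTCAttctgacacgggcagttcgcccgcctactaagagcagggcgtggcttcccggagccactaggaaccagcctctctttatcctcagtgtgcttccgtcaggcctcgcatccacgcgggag

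In Gclm (promoter chr2:213031885-213032184, plus strand) it lay at bases 79 to 87, also on the opposite strand, and only the bases around it are shown. Srxn1 (promoter chr3:161064562-161064861, plus strand) held the related NF-E2 type element TGAGTCAGC at bases 246 to 254, which is no ARE core by these letters and occurred in 0.4% of all promoters.

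Gclm: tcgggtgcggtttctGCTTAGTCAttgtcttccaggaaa
Srxn1: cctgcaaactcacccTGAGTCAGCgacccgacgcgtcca

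The promoters of Nqo1 (chr19:52220218-52220517, minus strand) and of Slc7a11 (chr2:136668215-136668514, minus strand) held neither element in this window. Both are printed because these genes changed in opposite directions, as described below.

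Nqo1: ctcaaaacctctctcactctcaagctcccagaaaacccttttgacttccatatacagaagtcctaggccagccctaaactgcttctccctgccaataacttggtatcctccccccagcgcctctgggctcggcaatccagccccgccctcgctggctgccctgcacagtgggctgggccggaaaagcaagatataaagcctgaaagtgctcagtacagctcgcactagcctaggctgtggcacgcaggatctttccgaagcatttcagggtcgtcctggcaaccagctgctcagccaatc
Slc7a11: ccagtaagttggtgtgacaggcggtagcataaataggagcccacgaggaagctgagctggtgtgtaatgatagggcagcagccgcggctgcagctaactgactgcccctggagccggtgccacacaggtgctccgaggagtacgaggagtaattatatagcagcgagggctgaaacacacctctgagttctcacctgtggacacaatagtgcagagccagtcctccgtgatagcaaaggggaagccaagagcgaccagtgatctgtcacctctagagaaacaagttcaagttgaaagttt

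The ATF4 type element TGATGCAA, searched because Slc7a11 is also a textbook target of ATF4, occurred in 0.795% of promoters and in none of the 12 promoters of these genes. A match is only a match of letters, and elements outside the window were not searched.

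Depth ranged from 13358678 to 18561991 counts per library, and the 9 genes held from 82 counts (Gclc) to 6377 counts (Gpx4) in a library. Levels are given as CPM, the share of a library's counts scaled to a common total, with TMM normalisation between libraries. A gene was called upregulated or downregulated when its adjusted p (Padj, edgeR quasi-likelihood test with Benjamini-Hochberg adjustment over all 14352 genes) was under 0.05 and its fold change was over 1.5. Each group held 3 animals, and the p-values measure the spread between these animals. HC markers summed to 6167 to 7357 CPM in control and to 1978 to 2888 CPM in IDPN-4wk libraries, and 9 of 13 were downregulated (median log2-Fold change -1.19). Spp1 made up most of this difference in sums, at a mean of 4518 CPM in control and 1270 CPM in treated libraries. By Padj alone 12 of the 13 were lower, all but Gfi1 (log2-Fold change -0.07, edgeR Padj = 0.759). Supporting cell markers summed to 9438 to 10464 CPM against 5103 to 6318 CPM, with 3 of 10 downregulated (Otog, Otogl and Gjb6) and a median log2-Fold change of -0.39. Most of this difference in sums was Otog, at a mean of 6262 CPM in control and 3199 CPM in treated libraries, while 2 of the 10, Sox9 and Hes1, had log2-Fold changes above 0 (0.24 and 0.36) and did not pass the test. None of the markers of either list was at 0 in all libraries. In bulk tissue, fewer cells of a type and less RNA per cell cannot be told apart, and this touches every value below. Pearson correlations of log2 CPM between libraries were 0.980 to 0.983 within and 0.953 to 0.966 between the groups. The 3 IDPN-4wk rats carry animal codes with a prefix that no control has, and what the prefix marks cannot be told apart from treatment.

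After 4 weeks of IDPN, Nqo1 and Hmox1 were upregulated and Slc7a11 was downregulated. Nfe2l2 and Txnrd1 also passed Padj, with smaller increases, while Keap1, Gclc, Gclm and Gpx4 did not pass it. Among the 9 genes, 2 were upregulated, beside 3.09% of all tested genes, and 1 was downregulated, beside 6.62%. By Padj alone, 4 genes were higher (7.89% of all genes) and 1 was lower (11.5%). The libraries of the groups did not overlap for 6 genes higher in IDPN-4wk (18.5% of all genes) and for 1 lower gene (19.3%). The median log2-Fold change was 0.32 over the 9 genes and 0.02 over all tested genes. When edgeR's glmTreat asked for a change beyond 1.5-fold, none of the 3 was called (Padj 0.260 for Slc7a11, 0.586 for Nqo1 and 0.704 for Hmox1), so that changes different from 0 are shown but changes above 1.5-fold are not.

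**Figure D1:**
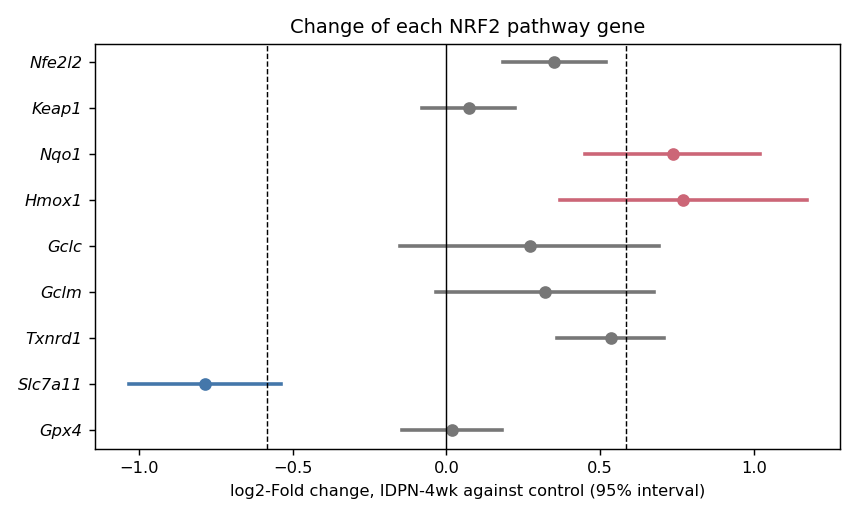
Log2-Fold change of each gene in IDPN-4wk against control, as points with 95% intervals; dashed lines mark a 1.5-fold change, and red, blue and grey stand for upregulated, downregulated and not called. The intervals of Nfe2l2, Nqo1, Hmox1 and Txnrd1 lie above 0 and that of Slc7a11 (-1.03 to -0.54) lies below it, while those of Keap1, Gclc, Gclm and Gpx4 include 0.

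The factor and its sensor were measured first. Nfe2l2 (ENSRNOG00000001548) was at 156, 135 and 141 CPM in the control libraries and at 191, 177 and 183 CPM in the IDPN-4wk libraries. Every treated animal was above every control. The group means were 144 ± 10.8 and 184 ± 6.58 CPM (SD, n = 3 each), and the increase of 0.35 on the log2 scale (SE 0.08, edgeR Padj = 0.00909) stayed under the 1.5-fold threshold. Without IDPN-4wk replicate 1 the edgeR Padj was 0.0536. Keap1 (ENSRNOG00000020878), the cysteine-rich adaptor that holds NRF2, was at 124, 114 and 125 CPM in control and at 128, 127 and 126 CPM in IDPN-4wk libraries. The groups did not overlap but lay close together, and Keap1 did not pass the test (log2-Fold change 0.07, 95% interval -0.08 to 0.22, edgeR Padj = 0.499). Changes of Keap1 beyond 0.22 on the log2 scale lie outside this interval. The ratio of both transcripts needs no scaling between libraries. Nfe2l2 had 126, 118 and 113 counts per 100 counts of Keap1 in control animals and 148, 140.2 and 145 in treated animals, with no overlap.

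**Figure D2:**
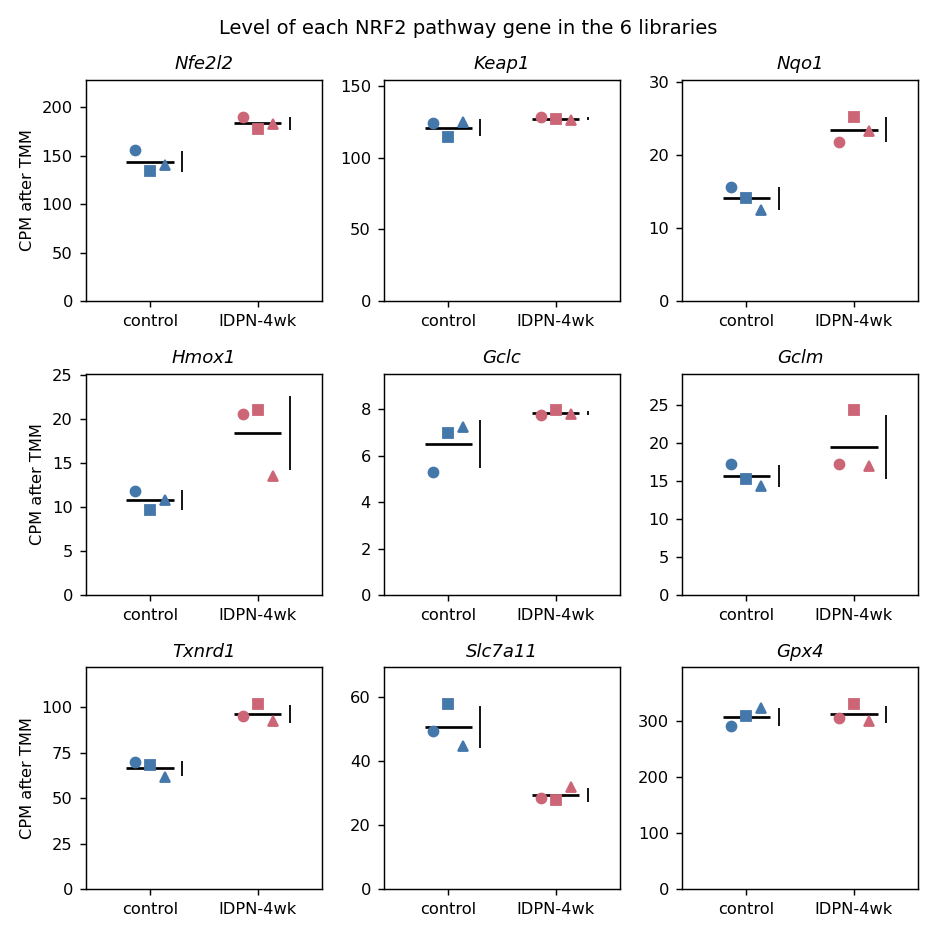
CPM after TMM of each gene in the 3 control (blue) and 3 IDPN-4wk (red) libraries; circle, square and triangle are replicates 1, 2 and 3, the horizontal line is the mean and the bar beside it the SD, and each axis starts at 0 with its own scale. Nqo1 was at 12.5 to 15.7 CPM in control and 21.9 to 25.3 CPM in IDPN-4wk libraries, Slc7a11 shows the opposite order, and the points of Gpx4 overlap.

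For each list of related genes below, the shares over all tested genes were 3.09% upregulated and 6.62% downregulated. By Padj alone they were 7.89% higher and 11.5% lower, and no list was tested as a set. Around the factor, 13 partners and regulators were listed and all were tested. Of these, 1 was upregulated, none was downregulated, 2 were higher by Padj alone, and the median log2-Fold change was 0.19. The upregulated gene was Maff, a small MAF protein of the kind that pairs with NRF2, with 3.68, 2.38 and 4.39 CPM in control and 6.69, 7.84 and 5.73 CPM in IDPN-4wk libraries. The groups did not overlap, but the call (log2-Fold change 0.96, SE 0.26, edgeR Padj = 0.0282) was lost without control replicate 1, control replicate 2, IDPN-4wk replicate 1 or IDPN-4wk replicate 2 (log2-Fold change 0.75 to 1.15 over the 6 fits that each leave out an animal, edgeR Padj up to 0.104). Sqstm1, which encodes p62, an autophagy receptor that binds KEAP1 and is itself an NRF2 target, is named after its values were seen. It was at 641, 595 and 630 CPM in control and at 857, 908 and 789 CPM in treated animals, an increase of 0.45 on the log2 scale (SE 0.08, edgeR Padj = 0.00225) without overlap but under the fold threshold. For Cul3, the scaffold of the ligase, the log2-Fold change was 0.33 (edgeR Padj = 0.0921). For Mafg the value was 0.35 (edgeR Padj = 0.0806) and for the repressor Bach1 it was 0.46 (edgeR Padj = 0.126). None of these 3 passed the test. With libraries scaled by size alone Cul3 (edgeR Padj = 0.0292) and Mafg (edgeR Padj = 0.0237) passed Padj, as did Cul3 without control replicate 3 (edgeR Padj = 0.0466) and Mafg without IDPN-4wk replicate 1 (edgeR Padj = 0.0264).

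The upregulated effector genes belong to quinone reduction and heme breakdown. Nqo1 (ENSRNOG00000012772), a cytosolic reductase that turns quinones into hydroquinones and is the customary readout of NRF2, was at 15.7, 14.1 and 12.5 CPM in control and at 21.9, 25.3 and 23.4 CPM in IDPN-4wk libraries. The lowest treated animal was well above the highest control. The means were 14.1 ± 1.58 and 23.5 ± 1.71 CPM (SD, n = 3 each). The treated mean was 167% of the control mean (log2-Fold change 0.74, SE 0.13, 95% interval 0.45 to 1.02, edgeR Padj = 0.00290), and Nqo1 was called in all 6 fits that each left out an animal. Hmox1 (ENSRNOG00000014117), the inducible heme oxygenase, was at 11.9, 9.65 and 10.8 CPM in control and at 20.6, 21.0 and 13.6 CPM in IDPN-4wk libraries. The groups did not overlap, but IDPN-4wk replicate 3 lay close to the controls and far from the other treated animals. The means were 10.8 ± 1.12 and 18.4 ± 4.18 CPM (SD, n = 3 each). The treated mean was 171% of the control mean (log2-Fold change 0.77, SE 0.18, edgeR Padj = 0.0140). The call was lost without control replicate 2 (edgeR Padj = 0.0552), without IDPN-4wk replicate 1 (edgeR Padj = 0.0623) and without IDPN-4wk replicate 2 (edgeR Padj = 0.0603).

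Hmox1 is also known from macrophages that clear red blood cells, so markers of both were summed. Red blood cell markers summed to 283 to 341 CPM in control libraries and to 464, 680 and 330 CPM in IDPN-4wk replicates 1, 2 and 3. Of the 6 rows tested, 2 were upregulated. Hba-a2 has 2 of these rows, 1 upregulated (edgeR Padj = 0.0319) and 1 not (edgeR Padj = 0.0532). All 6 rows had log2-Fold changes above 0, with a median of 0.68, and the libraries of the groups overlapped for each of them. Macrophage and leukocyte markers summed to 129 to 175 CPM in control libraries and to 237, 138 and 174 CPM in IDPN-4wk libraries. Of these 12 markers, 2 were upregulated, Lyve1 and C1qb, and none was downregulated. The log2-Fold change was above 0 for 6 and below 0 for 6 of them, with a median of 0.03. The treated animal with the lowest Hmox1 was also the one with the lowest sum of red blood cell markers, and their part in the Hmox1 value was not tested. Of 22 other genes listed for heme and iron handling 20 were tested, 1 was upregulated and none was downregulated, with a median of 0.07. By Padj alone none was lower and 2 were higher, the upregulated one and Cp (log2-Fold change 0.46, edgeR Padj = 0.00489), named after its values were seen. The upregulated gene was Tf, which encodes the iron carrier transferrin and ranged from 791 to 811 CPM in control and from 888 to 1715 CPM in treated animals (log2-Fold change 0.65, SE 0.18, edgeR Padj = 0.0300). Its call was lost without any 1 of the control replicates and without IDPN-4wk replicate 2, where the log2-Fold change was 0.35, and DESeq2 gave Padj = 0.0925. The constitutive heme oxygenase Hmox2 (log2-Fold change 0.17, edgeR Padj = 0.114), the biliverdin reductase Blvrb (0.35, edgeR Padj = 0.150) and the ferritin chains Fth1 (0.08, edgeR Padj = 0.506) and Ftl1 (-0.09, edgeR Padj = 0.654) did not pass the test.

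Genes of glutathione synthesis did not pass the test. Gclc (ENSRNOG00000006302), the catalytic subunit of glutamate-cysteine ligase, the rate-limiting enzyme of glutathione synthesis, was at 5.29, 6.99 and 7.22 CPM in control and at 7.76, 7.94 and 7.79 CPM in IDPN-4wk libraries. The groups did not overlap, yet the gap was small against the spread of the controls (log2-Fold change 0.27, 95% interval -0.15 to 0.69, edgeR Padj = 0.359). Without control replicate 1 the log2-Fold change of Gclc was 0.14. Gclm (ENSRNOG00000013409), the modifier subunit, was at 17.2, 15.3 and 14.4 CPM in control and at 17.2, 24.2 and 16.9 CPM in treated libraries. Its groups overlapped, and only IDPN-4wk replicate 2 stood above all controls by more than their own range (log2-Fold change 0.32, 95% interval -0.04 to 0.68, edgeR Padj = 0.196). Without that animal the log2-Fold change of Gclm was 0.12. The upper bounds of both intervals exceed a 1.5-fold change, so that increases of that size are not shown to be absent for Gclc or Gclm. Gclc had 42.2 ± 10.2 counts per 100 counts of Gclm in control and 41.3 ± 7.42 in IDPN-4wk libraries (SD, n = 3 each), with overlap.

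Downstream of synthesis, the list of glutathione enzymes held 31 genes, of which 29 were tested, 2 were upregulated (Gstt2 and Gstm5) and 1 was downregulated, with a median log2-Fold change of 0.13. By Padj alone 6 were higher, Gstm5 included, and 3 were lower. Gstm5 passed the filter on low counts only through the treated libraries and so had to differ, which leaves 1 upregulated gene beside it. Gstt2, a theta class glutathione transferase, rose, from a control level of 21.6 ± 1.63 CPM to a treated level of 33.0 ± 4.44 CPM (mean ± SD of 3 animals). The change of 0.61 on the log2 scale (SE 0.12, edgeR Padj = 0.00654) was not called when control replicate 2 or IDPN-4wk replicate 1 was left out. Gstm5, a mu class transferase, had 0 counts in all 3 control libraries and 42, 46 and 40 counts in the IDPN-4wk libraries, and no p is given for it. Against a floor of 3 counts per library it was at least 12.9-fold higher in treated animals. Its value is uncertain, since genes of this class are near copies of each other and the read assignment can split reads between them. Gpx3, the secreted selenium-dependent glutathione peroxidase, fell from 1482, 1619 and 1620.4 CPM in control to 709, 942 and 902 CPM in treated libraries (log2-Fold change -0.89, SE 0.10, edgeR Padj = 2.47e-04). The ranges lay far apart. Glutathione synthetase Gss (0.27, edgeR Padj = 0.0576) and glutathione reductase Gsr (0.18, edgeR Padj = 0.112) did not pass the test.

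Txnrd1 (ENSRNOG00000009088), the cytosolic selenoprotein that keeps thioredoxin reduced, was at 69.6, 68.0 and 61.8 CPM in control and at 95.1, 102 and 92.2 CPM in IDPN-4wk libraries. The groups were well separated. The means were 66.5 ± 4.13 and 96.3 ± 4.85 CPM (SD, n = 3 each). The treated mean was 145% of the control mean (log2-Fold change 0.54, SE 0.08, 95% interval 0.36 to 0.71, edgeR Padj = 0.00101), just under the fold threshold of 0.58 on the log2 scale. With libraries scaled by their size alone the estimate was 0.64 and passed both thresholds. In that scaling the median of all genes was 0.13, against 0.02 with TMM, a shift of the whole distribution that every value shares. Of 19 thioredoxin, peroxiredoxin and related genes tested, 1 was upregulated and 1 was downregulated, while 5 were higher and 4 lower by Padj alone (median 0.13). Over all genes the shares were 3.09% and 6.62%, and by Padj alone 7.89% and 11.5%. The upregulated gene was Txnip, which encodes a protein that binds and inhibits reduced thioredoxin, with 514, 420 and 482 CPM in control and 773, 840 and 689 CPM in IDPN-4wk libraries (log2-Fold change 0.70, SE 0.10, edgeR Padj = 6.92e-04). The downregulated gene was Msra, a methionine sulfoxide reductase, with 3.68, 4.61 and 4.60 CPM in control and 1.08, 2.42 and 1.48 CPM in treated libraries. It rested on as few as 15 counts (log2-Fold change -1.34, SE 0.33, edgeR Padj = 0.0173), and its call was lost without control replicate 2, control replicate 3 or IDPN-4wk replicate 1. Thioredoxin itself, Txn1, did not pass the test (log2-Fold change 0.17, edgeR Padj = 0.671). Prdx1, a peroxiredoxin that thioredoxin recharges, had a control level of 239 ± 6.49 CPM and a treated level of 330 ± 42.3 CPM (mean ± SD of 3 animals). Its log2-Fold change of 0.46 (edgeR Padj = 0.00565) was past Padj but not past the fold threshold.

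Slc7a11 (ENSRNOG00000010210), the light chain of the transporter that imports cystine in exchange for glutamate and so feeds glutathione synthesis, was the only 1 of the 9 genes that fell. It was at 49.5, 57.8 and 44.7 CPM in control and at 28.5, 27.9 and 31.8 CPM in IDPN-4wk libraries. All treated animals lay below all controls, within a narrow range. The means were 50.7 ± 6.62 and 29.4 ± 2.11 CPM (SD, n = 3 each). The treated mean was 58.0% of the control mean (log2-Fold change -0.79, SE 0.11, 95% interval -1.03 to -0.54, edgeR Padj = 8.41e-04). It was called in all 6 fits that each left out an animal (log2-Fold change -0.87 to -0.68). Its partner Slc3a2, the heavy chain that brings several amino acid transporters to the membrane, was at 788, 848 and 812 CPM in control and at 822, 860.2 and 852 CPM in treated libraries and did not pass the test (log2-Fold change 0.05, 95% interval -0.10 to 0.20, edgeR Padj = 0.652). As a ratio that needs no scaling, Slc7a11 had 6.28, 6.81 and 5.51 counts per 100 counts of Slc3a2 in control animals and 3.46, 3.24 and 3.73 in treated animals. The groups did not overlap.

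Slc7a11 is known to be strong in pigment cells, and so dark cell and melanocyte markers were read beside it. The 7 genes of this list summed to 1935 to 2507 CPM in control and to 1380 to 1531 CPM in IDPN-4wk libraries, with 3 downregulated, Kcnq1, Slc12a2 and Atp1b2, which serve ion transport in dark cells. The pigment cell genes did not pass the test, with log2-Fold changes of -0.23 for Pmel (edgeR Padj = 0.138), -0.87 for Tyr (edgeR Padj = 0.0729) and -0.51 for Mlana (edgeR Padj = 0.238). Of the HC and supporting cell markers, 9 of 13 and 3 of 10 were downregulated, and the part of any of these cells in the Slc7a11 value was not tested. Among 13 tested genes of cystine supply and lipid peroxidation none was called by edgeR, with 3 at an unadjusted p under 0.05, none called by DESeq2, 2 with libraries scaled by size alone and a median of 0.11.

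Slc7a11 is also induced by ATF4, the factor of amino acid stress, and so the targets of ATF4 were read beside it. Of 14 tested, Atf4 counted among them, 3 were upregulated and none was downregulated (median 0.14), beside 3.09% and 6.62% of all genes. By Padj alone 6 of the 14 were higher. These included Atf4 itself, named after its values were seen, with 147 ± 5.18 CPM in control and 179 ± 10.8 CPM in treated libraries (mean ± SD of 3 animals; log2-Fold change 0.28, edgeR Padj = 0.0206). The 3 were Cebpb (log2-Fold change 1.28, edgeR Padj = 0.00304) and Atf3 (1.18, edgeR Padj = 0.0113), both stress-induced transcription factors, and Ddit4 (0.61, edgeR Padj = 0.00949), an inhibitor of mTORC1 signalling. The call of Atf3 was lost without IDPN-4wk replicate 1 and that of Ddit4 without control replicate 3 or IDPN-4wk replicate 2. Over the 14 genes, log2-Fold changes were above 0 for 12 and below 0 for 2. Asns (0.01, edgeR Padj = 0.934), Ddit3 (0.05, edgeR Padj = 0.766), Trib3 (-0.21, edgeR Padj = 0.344) and Chac1 (-0.17, edgeR Padj = 0.519) did not pass the test. These 4 are named after their values were seen.

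Gpx4 (ENSRNOG00000013604), the selenoprotein that reduces lipid hydroperoxides in membranes and so opposes ferroptosis, was at 289.9, 309 and 322 CPM in control and at 304, 329 and 299 CPM in IDPN-4wk libraries. The groups overlapped. The log2-Fold change was 0.02 (95% interval -0.14 to 0.18, edgeR Padj = 0.892), so that changes beyond 0.18 in either direction lie outside the interval. Among selenoproteins and the genes that make them, 21 were tested, none was upregulated and 1 was downregulated, Gpx3, with a median of 0.02.

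Of the further textbook targets of NRF2, 23 were listed and 20 tested. Of these 1 was upregulated and none downregulated, 6 were higher and 1 was lower by Padj alone, and the median was 0.13. The upregulated gene was Gstm1, a mu class glutathione transferase, with 159, 115 and 136 CPM in control and 267, 249 and 245 CPM in IDPN-4wk libraries (log2-Fold change 0.89, SE 0.11, edgeR Padj = 3.03e-04). Its groups were far apart, and like Gstm5 it belongs to a class of near copies. Enzymes of the pentose phosphate pathway and of NADPH supply were among those past Padj only: Taldo1 (log2-Fold change 0.31, edgeR Padj = 0.0290), Me1 (0.26, edgeR Padj = 0.0320) and Idh1 (0.42, edgeR Padj = 0.00183), named after their values were seen. The exporter Abcc1 was the lower one (-0.28, edgeR Padj = 0.0420), and it was chosen in the same way.

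The enzymes that make or remove superoxide and peroxide outside this pathway included some with larger fold changes. Of 12 tested superoxide dismutases, catalase and oxidase subunits, none was upregulated and 2 were downregulated, with a median of 0.13. Nox3, the inner ear oxidase needed to form otoconia, was at 134, 141 and 127 CPM in control and at 55.3, 63.2 and 69.3 CPM in treated libraries (log2-Fold change -1.10, SE 0.09, edgeR Padj = 3.72e-05). Sod3, the secreted superoxide dismutase, was at 1734, 2247 and 1981 CPM in control and at 985, 991 and 1132 CPM in treated libraries (log2-Fold change -0.94, SE 0.10, edgeR Padj = 1.50e-04). In both genes every treated animal was below every control. Catalase (Cat), named after its values were seen, was at 152, 162 and 162 CPM in control and at 226, 229 and 204 CPM in treated libraries, an increase of 0.47 on the log2 scale (SE 0.07, edgeR Padj = 0.00154) under the fold threshold.

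**Figure D3:**
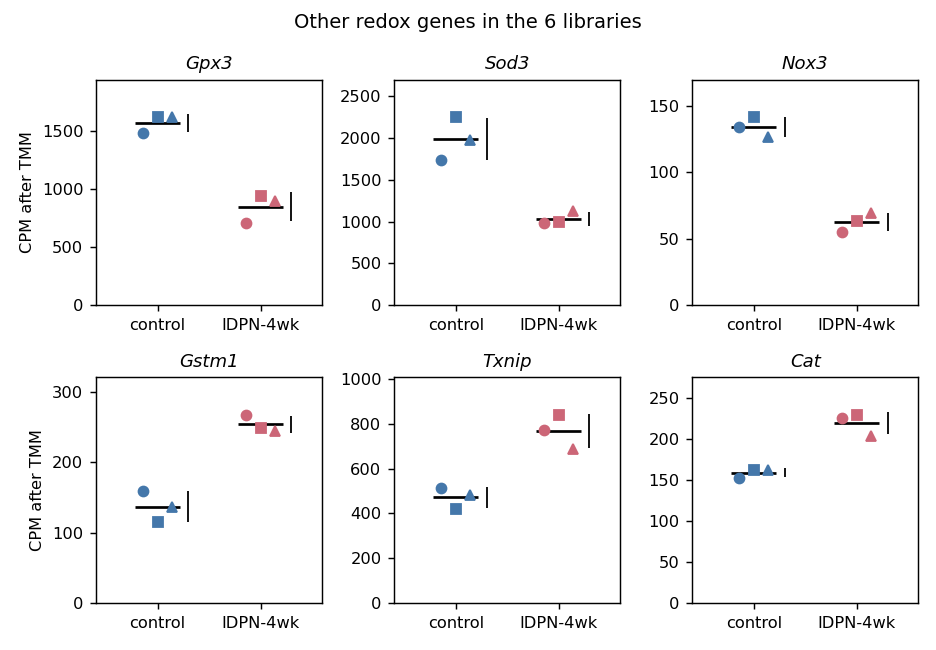
CPM after TMM of Gpx3, Sod3, Nox3, Gstm1, Txnip and Cat in the 3 control (blue) and 3 IDPN-4wk (red) libraries, with the mean as a line, the SD as a bar and axes that start at 0. The secreted enzymes Gpx3 and Sod3 and the oxidase Nox3 are lower in all treated animals (Nox3 55.3 to 69.3 against 127 to 141 CPM), and the other genes shown are higher in all of them.

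**Figure D4:**
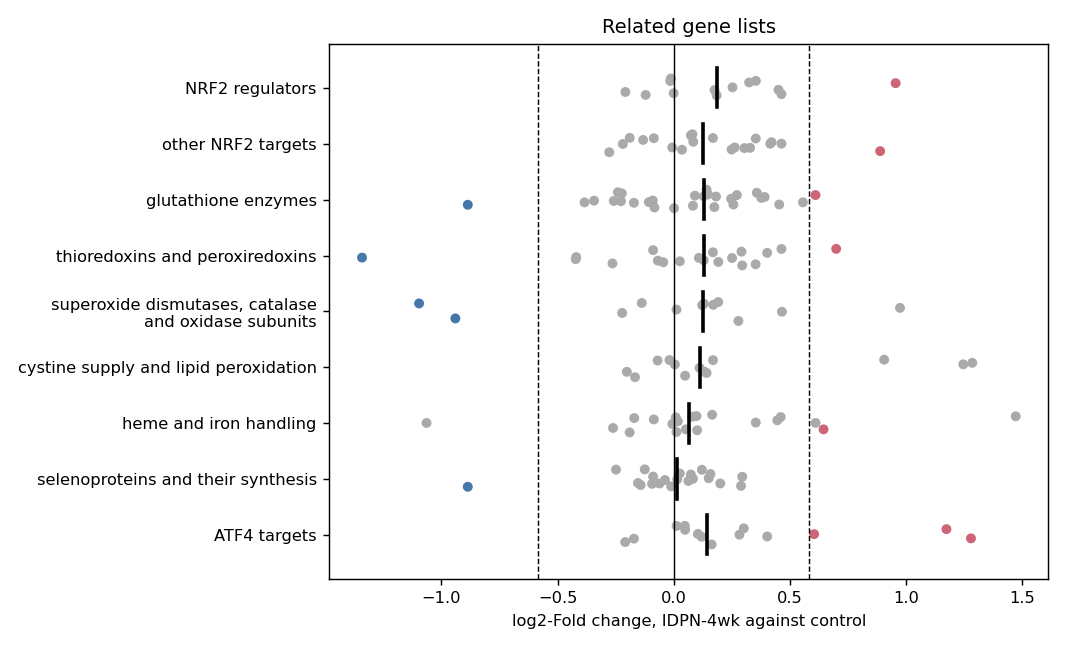
Log2-Fold change of each tested gene of the related lists, with the median as a black bar, dashed lines at a 1.5-fold change and called genes in red (upregulated) or blue (downregulated); Gstm5, with 0 counts in control libraries, is left out of the plot, and some genes stand in more than 1 list. Medians range from 0.02 for selenoproteins to 0.19 for NRF2 regulators, and the called genes lie on both sides of 0.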

How the data were processed

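RNA-seq libraries of 3 control and 3 IDPN-4wk rats were made by the authors with an oligo-dT primer, template switching and transposase fragmentation, a protocol that keeps no strand, so reads of overlapping antisense genes were not separated. Reads were mapped by the authors to Rnor6.0 (annotation Rnor6.0.92) with STAR 2.5.3a and counted with RSEM 1.3.0, versions per the submitters' processing notes. The deposited values are expected counts per gene, which were whole numbers already, and RSEM shares reads among near-identical genes. Groups came from the treatment label, and replicates were numbered in accession order, which pairs nothing. Low genes were removed by filterByExpr (count of 10, total of 15), and the rest scaled with TMM and tested with edgeR 4.0.16 (glmQLFit, glmQLFTest) in R 4.3.3. SEs and 95% intervals came from the quasi F statistic. The biological coefficient of variation was 0.124, and depth of 13358678 to 18561991 counts per library sets counting error only. A count of 0 was read as at most 3 counts. Alternatives were other scalings, DESeq2 1.42.0, no filter, glmTreat and each animal left out. The script was tested on simulated data. Genes were named by rule, except cell type markers and those said in the text to be named after their values were seen: the 10 pathway genes, the genes of each pathway list past both thresholds (at most 3 in each) and 12 partners. The genes and lists were chosen with earlier results of these data known. Promoters came from RefSeq (GRCr8).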

Additional observations from a re-analysis of the deposited data

How the results depend on the processing

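No paired analysis was possible because the labels give no replicate numbers. Of the 9 pathway genes, 2 were upregulated and 1 was downregulated under the other scalings, DESeq2 and no filter, except with library size alone. That setting gave 3 upregulated, beside 762 upregulated and 780 downregulated among all 14352 genes. The main fit had 444 and 950. With glmTreat, a test of whether a change exceeds 1.5-fold, the counts were 0 and 0 (Padj 0.586 for Nqo1, 0.704 for Hmox1 and 0.260 for Slc7a11), beside 99 upregulated and 354 downregulated genes in all. With each animal left out, 1 to 2 were upregulated, Hmox1 being the one lost. Log2-Fold changes near 0 turned sign for Gpx4 (-0.0219 without control replicate 1, -0.0269 to 0.0536 with each animal left out in turn), Ftl1 (0.0244 with library size alone, -0.242 to 0.0182 with animals left out) and Txn1 (-0.102 to 0.354 with animals left out). Library size alone gave 2 upregulated genes of cystine supply and 2 of heme handling. DESeq2 gave 1 upregulated superoxide and oxidase gene, and 0 upregulated and 1 downregulated heme gene. No filter gave 2 upregulated other NRF2 targets and 1 upregulated superoxide and oxidase gene. The filter removes genes with few counts from these lists, some of which are named here after their values were seen. Cbr1 had 0, 0 and 0 counts in control and 66, 0 and 8 in IDPN-4wk replicates 1, 2 and 3. Duox1 had 2, 4 and 0 against 22, 41 and 3, and Nox4 had 1, 1 and 0 against 5, 2 and 11. With glmTreat the upregulated genes were 0 among NRF2 regulators, 0 among other targets, 1 among glutathione enzymes, 0 among thioredoxins (0 downregulated), 0 in heme handling and 1 among ATF4 targets. The 1 glutathione enzyme was Gstm5, which had to differ, as said above. Gstm5 was called under all 12 alternatives and so is part of every glutathione count given here. With each animal left out, upregulated genes ranged from 0 to 1 among NRF2 regulators, from 1 to 3 among glutathione enzymes, from 0 to 1 among superoxide and oxidase genes, from 0 to 1 in cystine supply and from 0 to 1 in heme handling, and downregulated genes from 0 to 2 among thioredoxins and from 0 to 1 in heme handling. With library size alone Gss (Padj 0.0131), Gsr (0.0179) and Hmox2 (0.0158) also passed Padj, as did Gss with upper quartile scaling (0.0375). The causes were not tested. With 3 animals in a group, and 82 to 154 counts of Gclc in a library, precision is limited to the printed intervals.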
